A study of Mus musculus with 35 samples.

Results

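The genes encoded by mitochondrial DNA were followed through newborn mouse kidneys that had lost folliculin. The members are the genes whose symbol begins with mt-, found in the deposited count table that carries symbols and joined by Ensembl identifier to all 35 libraries. They are 13 of the 31053 genes in the tables, and they are the 13 protein-coding genes of the mitochondrial genome. The annotation (GENCODE M21, genome build GRCm38, also called mm10) lists 37 genes on the mitochondrial chromosome. Its 2 ribosomal RNAs and 22 transfer RNAs have no row with an mt- symbol in the tables, so they were not analysed here.

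Each library came from the whole kidney of a C57BL/6 mouse at postnatal day 2 and was made with QuantSeq, a kit that primes on the poly(A) tail and reads the 3′ end of messenger RNA. Flcn KO kidneys carried Flcn flox/flox and Ksp-cre (5 libraries, against 5 controls). Flcn/Tfeb DKO kidneys carried Flcn flox/flox, Tfeb flox/flox and Ksp-cre (4 libraries, against 3 controls). Flcn/Tfe3 DKO kidneys carried Flcn flox/flox and Ksp-cre on a Tfe3-/- background, in which Tfe3 is lost in every cell (10 libraries, against 8 controls). The labels name the controls only by their cross, and the study describes its control mice as Flcn flox/flox. Ksp-cre is driven by the promoter of cadherin 16. Per the study, the cells that express it include the collecting duct, the distal tubule and the thick ascending limb. Cells without Cre keep Flcn and Tfeb, and the study does not say whether the proximal tubule is among them. The files form 3 sets. Set A holds 17 libraries, those of Flcn KO, Flcn/Tfeb DKO and their controls, set B holds 6 DKO and 3 control libraries of the Flcn/Tfe3 cross, and set C holds the other 4 DKO and 5 control libraries of that cross.

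The libraries held 1652649 to 4239356 gene counts each. The kidney lists used as a check (proximal tubule, thick ascending limb, distal convoluted tubule, principal cell, intercalated cell and podocyte) were detected with all their genes in every group. The targeted genes passed no test in edgeR: log2 fold changes of Flcn were 0.09 (Flcn KO), 0.11 (Flcn/Tfeb DKO) and 0.20 (Flcn/Tfe3 DKO), with adjusted p = 0.929, 0.925 and 0.865. Tfeb stood at -0.73 (SE 0.38, adjusted p = 0.798) in Flcn/Tfeb DKO, and Tfe3 at -0.09 (adjusted p = 0.937) in Flcn/Tfe3 DKO. Reads at the 3′ end need not cover a deleted exon. For Flcn and Tfeb the kidney also keeps cells without Cre, which does not apply to Tfe3. Why the Tfe3 reads did not fall was not tested, and these values do not check the labels.

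The mitochondrial genome is transcribed as long molecules that are cut, mostly at the transfer RNAs, into messengers. All but 1 of the messengers come from the same strand, and mt-Nd6 comes from the other. Their proteins are core subunits of complexes I, III and IV of the respiratory chain and of complex V, the ATP synthase, while every other subunit, the polymerase and the RNA-binding proteins are made from nuclear genes. Most mitochondrial messengers receive short poly(A) tails, and in several of them the tail completes the stop codon. Kidney tubules are among the tissues richest in mitochondria.

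The last 60 bases of 6 transcripts are shown because QuantSeq starts from this end. They were taken from the GENCODE M21 transcripts, all lie on the plus strand, and the capitals mark the stop codon, or the single T with which the gene ends where the tail has to complete the codon:
mt-Nd1, chrM:3648-3707: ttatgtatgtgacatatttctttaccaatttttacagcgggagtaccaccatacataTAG
mt-Nd4, chrM:11485-11544: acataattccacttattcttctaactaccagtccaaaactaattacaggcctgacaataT
mt-Cytb, chrM:15229-15288: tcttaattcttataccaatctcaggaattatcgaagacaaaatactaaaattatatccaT
mt-Co1, chrM:6813-6872: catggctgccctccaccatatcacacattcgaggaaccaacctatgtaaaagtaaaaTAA
mt-Co2, chrM:7637-7696: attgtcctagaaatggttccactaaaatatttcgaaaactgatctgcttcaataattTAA
mt-Co3, chrM:9331-9390: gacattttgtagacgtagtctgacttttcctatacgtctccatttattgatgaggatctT
The first 4 belong to genes with at least 1492 counts in every library and the last 2 to genes with at most 192, as described next. mt-Nd4, mt-Cytb and mt-Co3 share the ending in a single T. The longest run of A inside any of the 13 transcripts was 8 bases, in mt-Nd2.

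The 13 genes fell into groups far apart in count. Those of mt-Nd4 had a median of 58421 counts over the 35 libraries, mt-Nd2 36033, mt-Nd1 25637, mt-Cytb 22172, mt-Nd5 5586 and mt-Co1 3218. Per kilobase of transcript the order was the same, from 42396 counts for mt-Nd4 through 34714, 26789, 19381 and 3063 to 2083 for mt-Co1. These 6 genes held 99.8% to 99.9% of the mitochondrial counts of each library. The other 7 held 0.0645% to 0.199%, with medians of 46 counts for mt-Nd6, 39 for mt-Co3, 29 for mt-Atp6, 28 for mt-Nd3, 24 for mt-Co2, 2 for mt-Atp8 and 0 for mt-Nd4l. No read was counted on mt-Nd4l in any of the 35 libraries, which allows up to 3 counts per library, or 0.708 to 1.82 counts per 1000000 counts (CPM). That limit, like the binomial interval given below for shares, covers counting error only.

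Most of the thinly counted genes have an identical copy in the nuclear genome. Reads were 100 bases long, and reads that align to several places are tallied apart from the genes in the files of sets A and C (33.7% to 49.4% of aligned reads). Every stretch of 100 bases of the 13 transcripts was therefore searched for in the 141730 nuclear transcripts of the same annotation. For mt-Co3, 684 of 685 stretches were found in a nuclear pseudogene, for mt-Co2 582 of 585, for mt-Atp6 579 of 582, for mt-Nd4l 195 of 198 and for mt-Nd3 243 of 249. The copies of mt-Co2 (Gm28661, chr1:24614885-24615565), mt-Atp6 (Gm10925, chr1:24613974-24614651), mt-Co3 (Gm28437, chr1:24613189-24613971), mt-Nd3 (Gm28438, chr1:24612775-24613119) and mt-Nd4l (Gm10222, chr1:24612407-24612700) lie side by side on chromosome 1, all on the minus strand. They matched the mitochondrial gene at 681 of 681, 678 of 678, 783 of 783, 344 of 345 and 294 of 294 aligned bases. The single difference, in mt-Nd3 against Gm28438, was T3C, counted from the first base of mt-Nd3. None of the 10 pseudogenes found in this search has a row in the tables.

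The next neighbour in that block, Gm28439 (chr1:24611535-24612410), copies the beginning of mt-Nd4 and not its end. Of the 1279 stretches of mt-Nd4, 777 were found in it, the last of them starting at base 777, and none of the 201 stretches within the last 300 bases. mt-Nd1, mt-Nd5, mt-Cytb, mt-Nd6 and mt-Atp8 had no such stretch, and mt-Nd2 had 30 of 939. mt-Co1 stood between the groups. In it 446 of 1446 stretches were copied, with all 201 in the last 300 bases among them (Gm13340 and Gm29216), and it was the lowest of the 6 well counted genes. mt-Nd6, from the light strand, and mt-Atp8, which shares 43 bases with mt-Atp6, were thinly counted without a copy among the transcripts searched. Only transcripts were searched, not the whole genome, and a read that matches both places cannot be assigned to either, so the counts of mt-Co2, mt-Co3, mt-Atp6, mt-Nd3 and mt-Nd4l, and in part those of mt-Co1, are uncertain as levels. mt-Nd5 and mt-Nd6 overlap by 14 bases on opposite strands, and mt-Nd4l and mt-Nd4 by 7 on the same strand. mt-Atp8 and mt-Atp6 also overlap on the same strand, so no transfer RNA parts the genes of either pair. A kit that reads 3′ ends may miss the first gene of a shared molecule. The part of the kit in the low counts of mt-Nd4l, mt-Atp8 and mt-Nd6 was not tested. Whether the counting used the strand is not given in the sources used here.

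**Figure D1:**
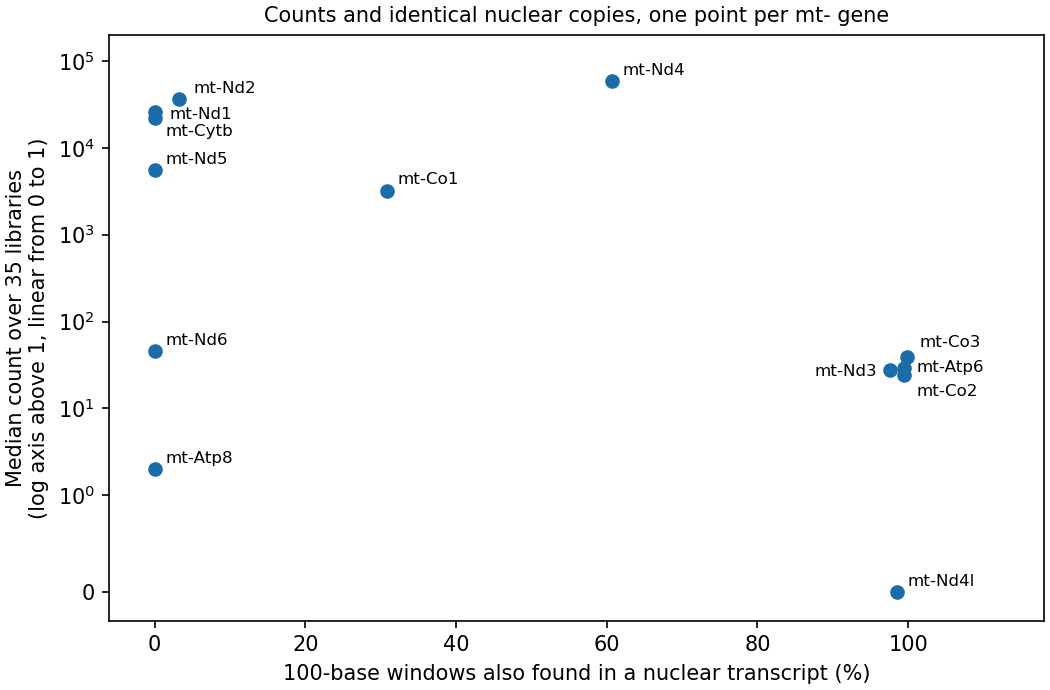
Median count over the 35 libraries (vertical, logarithmic above 1) against the percentage of 100-base stretches found identically in a nuclear transcript (horizontal), with 1 point per gene. The 5 genes at 97.6% to 99.9% had medians of 39 counts or fewer, and at 0% mt-Nd6 and mt-Atp8 had medians of 46 and 2.

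The share of counts that fell on the 13 genes differed between sets. In set A it was 4.47% to 11.9%, in set C 2.72% to 7.80% and in set B 1.79% to 3.56%. Sets B and C are of the same cross, while set A shares no cross with them, so its set and crosses cannot be told apart. Binomial 95% intervals (Clopper-Pearson) reached at most 0.0491 percentage points to either side, far less than the spread between libraries. In whole kidneys fewer cells of a kind rich in mitochondria and less mitochondrial RNA per cell cannot be told apart.

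In the Flcn cross the controls had 9.98%, 11.1%, 10.6%, 4.88% and 4.93% of their counts on the 13 genes (8.31% ± 3.14, mean ± SD, n = 5). The Flcn KO libraries had 8.44%, 7.33%, 10.4%, 11.1% and 7.84% (9.01% ± 1.63, n = 5). The KO values lay inside the range of the controls, whose replicates 4 and 5 stood at less than the lowest KO. In the Flcn/Tfeb cross the controls had 9.16%, 10.7% and 4.47% (8.12% ± 3.26, n = 3) and the DKO libraries 10.4%, 11.8%, 11.9% and 11.8% (11.5% ± 0.724, n = 4). Control replicate 2 lay above DKO replicate 1, so these groups overlapped too. The difference of 3.34 percentage points was 1.52 without control replicate 3.

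In set B the controls had 2.99%, 2.10% and 2.31% (2.47% ± 0.463, n = 3) and the 6 DKO libraries lay between 1.79% and 3.56% (2.30% ± 0.658). In set C the controls had 5.12%, 7.80%, 3.01%, 4.08% and 4.64% (4.93% ± 1.79, n = 5) and the DKO libraries 3.22%, 3.11%, 2.72% and 4.27% (3.33% ± 0.659, n = 4). Control replicates 6 and 7 lay within the DKO range of set C, and DKO replicates 7, 8 and 10 lay within the control range. The difference of group means was -0.16 percentage points in set B and -1.60 in set C. Over both sets, with the set as a term, the difference was -0.92. No test was made of this sum over the members.

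**Figure D2:**
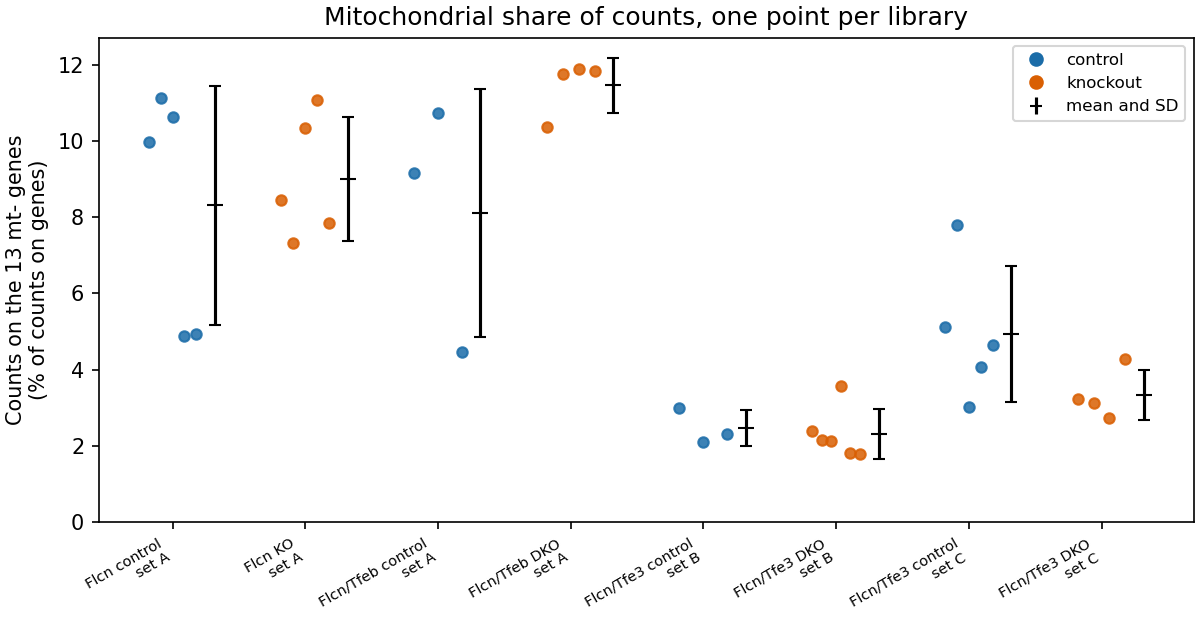
Counts on the 13 mitochondrial genes as a percentage of all counts on genes, with 1 point per library, by group and set, and the mean with its SD beside each group. The libraries of set B lie at 1.79% to 3.56% and overlap with those of set C (2.72% to 7.80%), and the control and knockout points overlap in every set.

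The share moved with another measure of the libraries. Where the files tally the reads that aligned to no gene (sets A and C), the libraries low in one were low in the other. Control replicates 4 and 5 of the Flcn cross had 10.96% and 9.06% of aligned reads on no gene, against 12.9% to 18.1% in the other 8 libraries of that cross. Control replicate 3 of the Flcn/Tfeb cross had 9.07%, against 17.8% to 19.9% in the other 6. In set C the 4 DKO libraries had 7.92% to 10.5%, control replicate 6 had 8.78% and the other 4 controls 12.1% to 18.4%. The DKO libraries of set C were also deeper (3159884 to 3555791 counts) than all its controls (1719367 to 2909353), with no overlap. The ribosomal and transfer RNAs of mitochondrial DNA have no counts here, so the reads on no gene may hold mitochondrial reads. With the reads on no gene added to the denominator, every share must become smaller, and difference and spread shrank together. In set C the difference in share went from -1.60 (pooled SD 1.42) to -0.87 percentage points (0.824). For Flcn/Tfeb DKO it went from 3.34 (2.13) to 1.81 (0.986), and for Flcn KO from 0.70 (2.50) to 0.35 (1.44). Reads aligned to several places moved alike in set C: 33.7% to 36.1% of aligned reads in the DKO libraries, 35.002% in control replicate 6 and 40.04% to 42.5% in the other 4 controls. The part of depth, of reads on no gene and of reads aligned to several places in the results below was not tested.

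**Figure D3:**
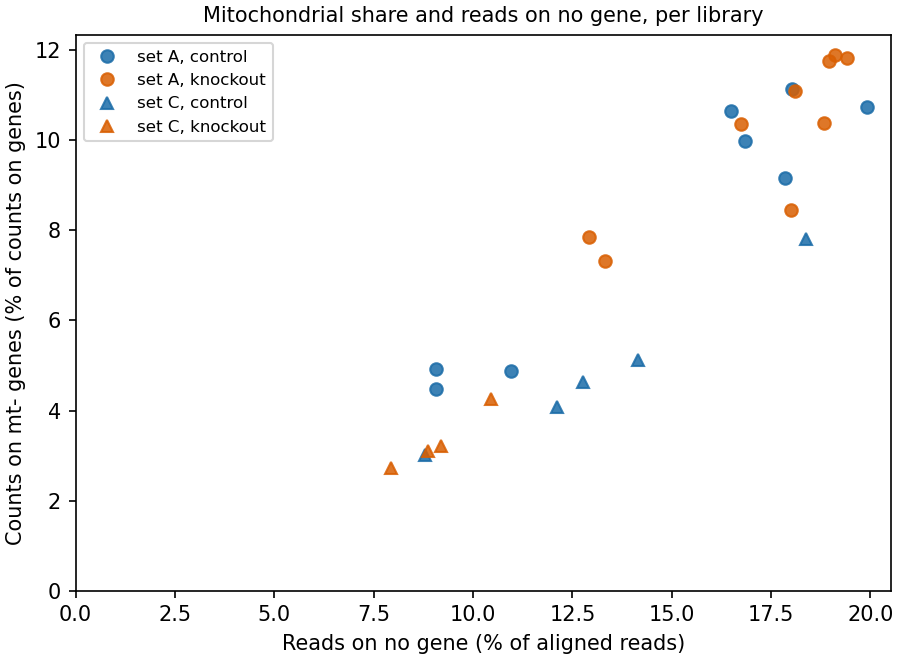
Mitochondrial share of counts (vertical, percent of counts on genes) against reads on no gene (horizontal, percent of aligned reads) in the 26 libraries of sets A and C, coloured by control or knockout. Low values went together in both sets, and the 4 set C knockouts lie with control replicate 6 at 7.92% to 10.5% of reads on no gene.

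Gene by gene, 11 of the 13 members passed the filter on low counts in every comparison, all but mt-Atp8 and mt-Nd4l. The genes were fitted with all others in edgeR's quasi-likelihood test with Benjamini-Hochberg adjustment across every gene tested. The p values measure the spread between these libraries, each of them a separate kidney sample per its label. Log2 fold changes are knockout over control, with their standard errors (SE), and levels are in CPM after scaling by trimmed means (TMM).

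In the Flcn cross none of the 11 members passed, where 0.520% of all genes did (62 of 11932). None had an unadjusted p below 0.05, and DESeq2 called none. All 11 fold changes were above 0, as were 48.5% of all genes, with a median log2 of 0.21 against -0.01 over all genes. Among the complex I genes mt-Nd5, a proton-pumping subunit, read 3304.5, 3726, 3366, 1519 and 1311 CPM in the controls and 3104, 2484, 3710, 3977 and 2580 CPM in the KO libraries. Replicates 4 and 5 of the controls were the low ones and the other 3 lay within the KO range, and its log2 fold change was 0.26 (SE 0.26, adjusted p = 0.787). Without control replicate 4 the median of the 11 was 0.05, and without replicate 5 it was 0.06. With a library left out it reached at most 0.42, and 4 of the 11 changed sign in some of the settings tried. The highest value, 0.58 (SE 0.31) for mt-Co3, is of a gene with an identical nuclear copy.

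In the Flcn/Tfeb cross none of the 11 members passed either, and 0% of all 12469 genes did. One member, mt-Co2, had an unadjusted p below 0.05 (632 of all genes did), and DESeq2 called no member and no gene. All 11 values were above 0, as were 47.9% of all genes, and their median was 0.50 against -0.02. A list of 7 muscle and brown fat genes, on library totals, summed to 7.02 to 60.6 CPM in the controls. In the DKO libraries it summed to 17.5 to 253 CPM, so the sums overlapped. Its 3 tested genes were above 0 (median 2.64), 2 with an unadjusted p below 0.05 and 0 called. The part of this in the mitochondrial values was not tested. mt-Nd4, another pumping subunit of complex I, read 35812, 47098 and 13107 CPM in the controls and 47816, 52389, 51522 and 49930.5 CPM in the DKO libraries. Its groups did not overlap, by a narrow gap at control replicate 2. It was the single member of 11 with every DKO library above every control, where 2.71% of all genes were so. Its log2 fold change was 0.66 (SE 0.46, adjusted p = 0.800). Leaving out control replicate 3 took the median of the 11 to 0.13. With a library left out it reached at most 0.76, and 1 of the 11 changed sign in 1 of the settings tried.

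In the Flcn/Tfe3 cross as a whole, with the set as a term, none of the 11 passed, against 0.385% of all genes (48 of 12456). Of the 11, 5 had an unadjusted p below 0.05, as did 7.15% of all genes, and DESeq2 called none. The values were below 0 in 10 of 11, with a median of -0.44 against 0.01 over all genes, and of -0.70 with no set term. The exception was mt-Atp6 at 0.17 (SE 0.23). The sets of this cross gave different pictures.

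In set B none of the 11 passed, against 0.0606% of all genes (8 of 13191). None had an unadjusted p below 0.05 and DESeq2 called none. Values were above 0 in 9 of 11, with a median of 0.13 against 0.00 over all genes, where 50.3% were above 0. The exceptions were mt-Nd2 at -0.13 (SE 0.21) and mt-Nd4 at -0.27 (SE 0.24). With a library left out the median lay between 0.04 and 0.22, and over all settings tried 7 to 10 members were above 0. mt-Co1, the catalytic subunit of complex IV, read 469.5, 465, 520 CPM in the controls. In the 6 DKO libraries it had a lowest value of 477 CPM, a median of 564 and a highest of 684. The lowest DKO library fell inside the control range, and the log2 fold change was 0.24 (SE 0.13, adjusted p = 0.752).

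In set C mt-Co1, mt-Cytb and mt-Co3 were lower in the DKO kidneys, 3 of 11 members, where 4.68% of all genes passed (569 of 12169) and 3.78% passed as lower. All 11 members had values below 0, against 49.6% of all genes above 0, and 10 of the 11 had an unadjusted p below 0.05, as did 21.3% of all genes. Their median was -0.89 against 0.00 over all genes. DESeq2 called 4 members.

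mt-Co1 read 1788, 2445, 741, 1078 and 1292 CPM in control replicates 4 to 8 of set C and 792, 669, 551 and 795 CPM in DKO replicates 7 to 10. Control replicate 6 lay among the DKO libraries and the other 4 controls lay above all of them. Its log2 fold change was -1.06 (SE 0.25, edgeR adjusted p = 0.0226). The same split of libraries, control replicate 6 with the DKO libraries, was seen in reads aligned to several places, and the last 300 bases of mt-Co1 are copied in nuclear transcripts. The part of this in the call was not tested. mt-Cytb, the cytochrome b of complex III, read 12150, 15849, 4115, 7415 and 9490 CPM in the controls and 4679, 4361, 3578 and 6641 CPM in the DKO libraries. Again control replicate 6 was the one control in the DKO range, and the log2 fold change was -1.03 (SE 0.29, edgeR adjusted p = 0.0464). mt-Co3, a core subunit of complex IV, was counted 33, 19, 17, 34 and 32 times in the controls and 16, 23, 17 and 6 times in the DKO libraries. At this count, and with an identical nuclear copy, its log2 fold change of -1.42 (SE 0.36, edgeR adjusted p = 0.0292) rests on few reads.

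None of the complex I genes of set C passed, with adjusted p from 0.0554 to 0.144. mt-Nd2 read 11858, 25368, 7894, 10158 and 12296 CPM in the controls and 7545, 7453, 6650 and 7850 CPM in the DKO libraries. It was the single member of 11 with every DKO library below every control, by a narrow gap to control replicate 6, where 2.65% of all genes were so. Its log2 fold change was -0.87 (SE 0.26, edgeR adjusted p = 0.0585). Besides mt-Nd4 in the Flcn/Tfeb cross, no other of the 11 had groups apart in either direction. mt-Atp8, which the filter left out, had 3 to 7 counts in the set C controls and 0 to 1 in the DKO libraries. Over all genes the knockouts lay above every control in 1.67% (Flcn cross), 1.74% (set B) and 3.10% (set C), and below every control in 0.712% (Flcn cross), 2.94% (Flcn/Tfeb cross) and 1.22% (set B). The values were -0.89 for mt-Nd5, -0.95 for mt-Nd6, -0.84 for mt-Nd1, -0.87 for mt-Nd3 and -0.68 for mt-Nd4 (edgeR adjusted p = 0.0554, 0.0562, 0.0650, 0.0834 and 0.144). mt-Co2 stood at -1.06 (SE 0.41, adjusted p = 0.147) and mt-Atp6, a membrane subunit of the ATP synthase, at -0.12 (SE 0.38, adjusted p = 0.884).

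**Figure D4:**
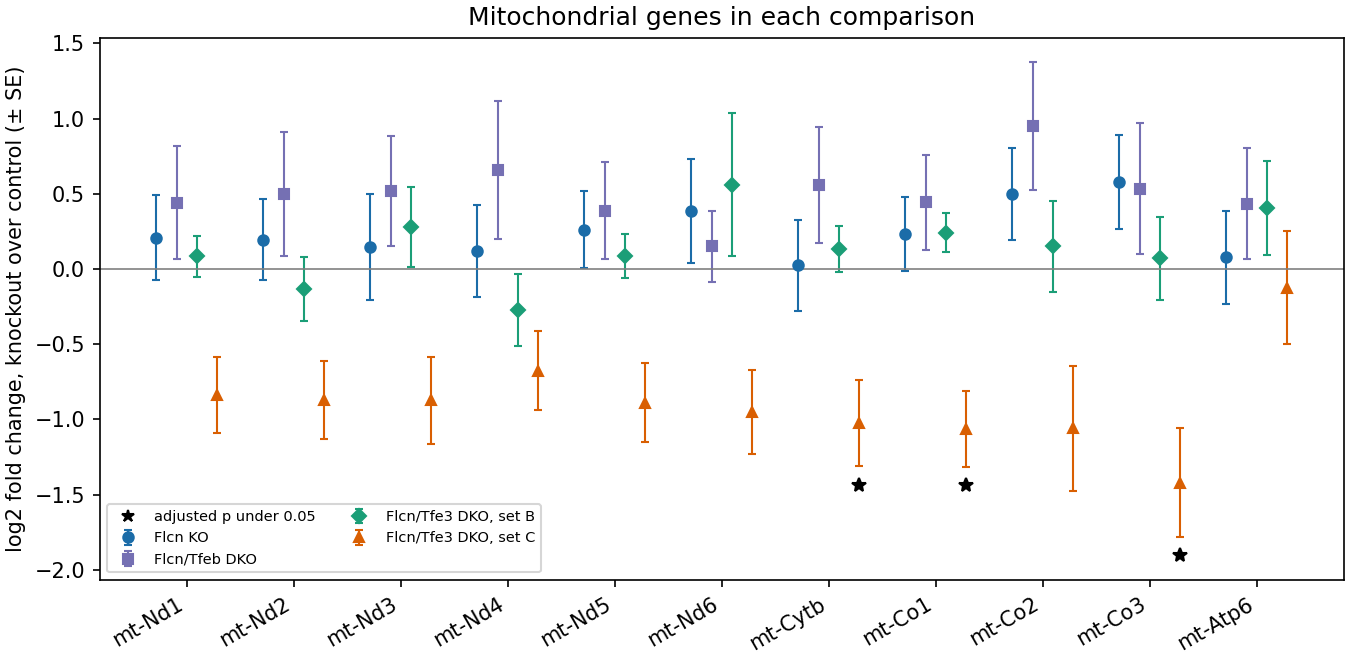
Log2 fold change of knockout over control for the 11 genes that passed the filter, with bars of 1 SE, in the Flcn cross, the Flcn/Tfeb cross and sets B and C of the Flcn/Tfe3 cross. All triangles (set C) lie below 0, with stars at mt-Cytb, mt-Co1 and mt-Co3, and the other comparisons hold no star.

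These calls hung on single libraries. The number of members called in set C was 10 without control replicate 6, 1 without control replicate 7 or 8, and 0 without control replicate 4 or 5 or without any 1 of the 4 DKO libraries. The number of all genes called moved as widely, from 26 to 2404. A list of 6 adrenal cortex genes, on library totals, summed to 227 CPM in control replicate 6. In the other libraries of set C it summed to 0 to 2.19 CPM, and none of its genes passed the filter there. Set B held libraries of both groups with such sums, up to 288 CPM in controls and 307 CPM in DKO libraries. The part of this in the calls was not tested. On library totals with no TMM factors 1 member was called and the median was -0.65, while the median over all genes rose to 0.20, so that relative to all genes it stayed at a similar distance. On that scaling, and without control replicate 4, mt-Atp6 turned above 0. The other 10 members kept values below 0 under every alternative and with every library left out in turn.

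The difference between the effects was tested as an interaction. These contrasts use the same libraries as the comparisons above. The effect in set C was lower than that in set B for all 11 members (median -1.11 against 0.04 over all genes), and mt-Co1 passed, at -1.26 (SE 0.32, edgeR adjusted p = 0.0474), 1 of 11 where 1.30% of all genes passed and 1.12% passed as lower. Of the 18 libraries of this cross it held its call only with control replicate 6 or 7 or DKO replicate 2 or 4 left out, with adjusted p from 0.000841 to 0.124 over all settings tried, and it was not called on library totals or with the filter at a mean of 10 counts. Between crosses no member passed. For Flcn/Tfeb less Flcn the median of the 11 was 0.30 and 0.0153% of all genes passed, and no member had an unadjusted p below 0.05. Its direction turned without Flcn/Tfeb control replicate 3 (-0.06, with 3 of 11 above 0), it was 0.07 without Flcn control replicate 2, and it was 0.62 without Flcn/Tfeb control replicate 2. Without Flcn control replicate 4 or 5 it was 0.47 or 0.46. For Flcn/Tfe3 less Flcn the median was -0.68 and 0% of all genes passed, with 3 members and 7.40% of all genes at an unadjusted p below 0.05 (1 to 7 members with a library left out, at medians from -0.83 to -0.48). For Flcn/Tfe3 less Flcn/Tfeb the median was -0.90 and 0.0220% of all genes passed, with 8 members and 12.2% of all genes at an unadjusted p below 0.05. Without Flcn/Tfeb control replicate 3 that median was -0.57 and no member had an unadjusted p below 0.05, and without any other single library 4 to 9 did. DESeq2 called no member in these 3 contrasts.

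The balance among the messengers was read from each gene's part of the mitochondrial counts. The complex I genes held 75.5% to 88.4% of the mitochondrial counts (median 83.9%), mt-Cytb 9.74% to 21.3% (median 14.03%), the complex IV genes 1.64% to 3.20% (median 2.21%) and the complex V genes 0.00895% to 0.0519%. Within its group and set, a library that was high or low for 1 of the 6 well counted genes was so for all 6 in 22 of 35 libraries (13 of 17 in set A, 4 of 9 in set B and 5 of 9 in set C). The 6 genes share library and depth in each of these comparisons.

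Some ratios between members differed between sets. The ratio of mt-Nd5 to mt-Nd1 counts was 0.128 to 0.155 in set B, 0.158 to 0.230 in set A and 0.297 to 0.344 in set C, with no library of one set inside the range of another. In set C it was 0.323 ± 0.0139 (n = 5) in the controls and 0.314 ± 0.0119 (n = 4) in the DKO libraries, and in set B 0.143 ± 0.00454 (n = 3) and 0.143 ± 0.00915 (n = 6). mt-Cytb over mt-Nd1 was 1.03 to 1.43 in set C and 0.582 to 0.926 elsewhere. mt-Co1 over mt-Nd1 was 0.149 to 0.210 in set C and 0.0970 to 0.139 in the others. Within set C this ratio was 0.191 ± 0.0107 in the controls and 0.165 ± 0.0170 in the DKO libraries, whose highest, 0.189, lay inside the control range. mt-Nd4 over mt-Nd1 varied within sets instead, from 1.43 to 3.12 over all libraries, with 1.56 in Flcn KO replicate 1 against 2.62 or more in its 4 group mates. As a percentage of mitochondrial counts, mt-Nd4 differed between knockout and control by -0.92 points (Flcn cross), 3.96 (Flcn/Tfeb cross), -4.87 (set B) and 3.46 (set C), each a difference of group means, against pooled SDs of 3.65, 2.80, 3.83 and 1.78 points. Its groups were apart in set C only, by a narrow gap (34.8% to 37.51% in controls, 37.53% to 42.6% in DKO libraries). mt-Nd5 was apart in the Flcn/Tfeb cross (3.22% to 3.89% in controls, 2.95% to 3.14% in DKO libraries). Of the thinly counted genes mt-Atp6 was apart in set B (0.0209% to 0.0233% in controls, 0.0238% to 0.0445% in DKO libraries). So was mt-Atp8 in set C (0.00296% to 0.00627% in controls, 0% to 0.00116% in DKO libraries). No other member was apart. Other genes have no such percentage, so no share over all genes stands beside these separations.

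**Figure D5:**
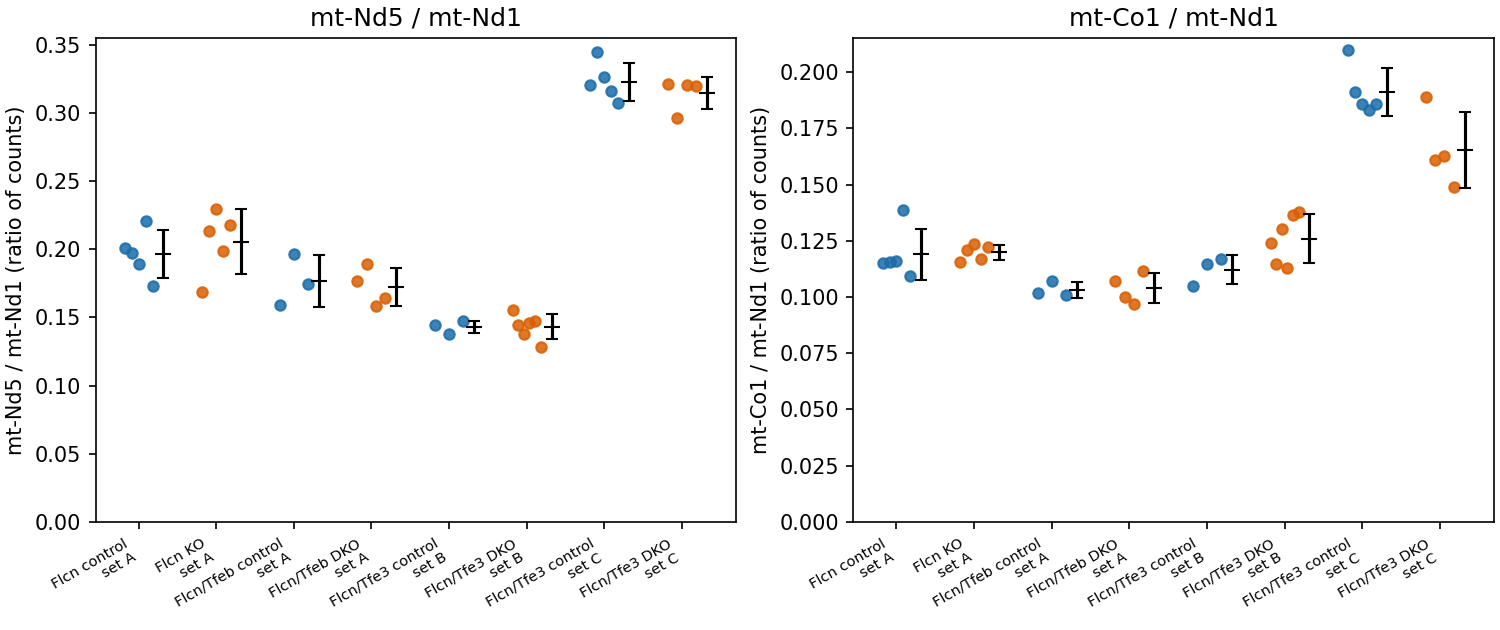
Ratio of counts of mt-Nd5 to mt-Nd1 (left) and of mt-Co1 to mt-Nd1 (right), with 1 point per library by group and set, and the mean with its SD. Set C lies above the other sets in both panels (0.297 to 0.344 and 0.149 to 0.210), and controls (blue) and knockouts (orange) of 1 cross and set overlap in range.

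The nuclear partners of these genes were read from a list of 75 nuclear-encoded subunits of complexes I to V. In set C 13 of the 75 were lower and none higher, with a median of -0.37. Of all genes 3.78% passed as lower there, and the list was not refitted with libraries left out. On library totals its summed level was 22787 to 34650 CPM in the controls and 25456 to 26860 CPM in the DKO libraries, so the sums overlapped. Among the 13 were Atp5e, the epsilon subunit of the ATP synthase (-1.47, SE 0.28, edgeR adjusted p = 0.00875), Cox7b of complex IV (-1.33, SE 0.29, adjusted p = 0.0150), Ndufa4, now placed in complex IV (-1.32, SE 0.27, adjusted p = 0.0104), Ndufb4 of complex I (-1.17, SE 0.28, adjusted p = 0.0214) and Uqcrh of complex III (-0.88, SE 0.21, adjusted p = 0.0240). In set B 74 of the same 75 lay above 0 with none called, and their median was 0.31. The values there were 0.43 for Atp5e, 0.50 for Cox7b, 0.63 for Ndufa4 and 0.35 for Ndufb4 (adjusted p = 0.752 for each in edgeR). The difference between the sets passed for 10 of the 75, all lower in set C, where 1.30% of all genes passed and 1.12% passed as lower, with Ndufa4 at -1.90 (SE 0.41, edgeR adjusted p = 0.0428). These calls were not stable: on library totals, and in most of the fits with a library left out, 0 genes of any kind passed in this contrast. In the Flcn cross 71 of 75 lay above 0 with none called (median 0.26), and in the Flcn/Tfeb cross 46 of 74 tested with none called (median 0.14). The summed level of the list, on library totals, was 24457 to 32300 CPM in Flcn controls and 32636 to 36846 CPM in Flcn KO. Those groups were apart by a narrow gap. The sums overlapped in the Flcn/Tfeb cross and in set B, and no sum was tested. An unadjusted p below 0.05 was seen for 26 of 75 in the Flcn cross and 0 of 74 in the Flcn/Tfeb cross. It was seen for 34 of 75 in set B and 42 of 75 in set C. Of all genes 9.07%, 5.07%, 6.56% and 21.3% were so, in the same order.

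A second list held 41 genes that copy, transcribe, process or stabilise mitochondrial nucleic acid. In set C 2 of the 39 tested passed, both lower, a share close to the 4.68% of all genes that passed there, so the count says nothing particular of the list. None passed in the other comparisons. Slirp, the partner of Lrpprc in a complex that stabilises mitochondrial messengers, was lower (-0.93, SE 0.23, edgeR adjusted p = 0.0240), as was Fastkd2, an RNA-binding protein of mitochondrial ribosome assembly (-0.88, SE 0.23, edgeR adjusted p = 0.0339). The contrast of set C with set B did not pass for Slirp (-1.15, SE 0.33, edgeR adjusted p = 0.0674). Lrpprc itself was at 0.37 in set C (SE 0.16, edgeR adjusted p = 0.178) and -0.42 in set B (SE 0.18, adjusted p = 0.752). Polrmt, the mitochondrial RNA polymerase, and Tfam, which packages mitochondrial DNA and starts its transcription, did not pass in any comparison. In set C they stood at -0.23 (SE 0.22) and -0.24 (SE 0.14). The median of the list was -0.05 in set C and 0.08 in set B.

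Markers of other cells moved beside the mitochondrial genes in set C (levels here on library totals). Red blood cells lose their mitochondria as they mature. The summed level of the red blood cell list (8 of 9 genes detected in the controls and 7 in the DKO libraries, Hbb-y at 0 in both) was 2168 to 6358 CPM in the controls and 1482 to 1973 CPM in the DKO libraries, with no overlap, and 4 of its 6 tested genes were lower, where 3.78% of all genes were. The proximal tubule list, whose cells are rich in mitochondria, summed to 4694 to 5112 CPM in the controls and 3923 to 4874 CPM in the DKO libraries, with all 18 genes detected and 4 of the 18 lower. The intercalated cell list, also of cells rich in mitochondria, summed to 174 to 236 CPM and 296 to 400 CPM with all 6 detected and 2 of the 6 called higher, and the thick ascending limb list to 617 to 816 CPM and 961 to 1008 CPM with all 4 detected. Both sums lay higher in the DKO libraries with no overlap. Of all 12169 genes 109 were called higher. In the thick ascending limb list 1 of 3 tested genes was higher and the median was 0.11, so the sum does not stand for the list. In comparisons where no mitochondrial gene was called, the intercalated cell sum stood at 167 to 211 CPM in controls and 306 to 462 CPM in DKO libraries of set B, and at 163 to 211 CPM in controls and 403 to 516 CPM in Flcn KO, and the thick ascending limb sum at 804 to 1007 CPM and 821 to 1284 CPM in set B, where it overlapped, and at 907 to 1170 CPM and 1180 to 1509 CPM in the Flcn KO comparison. In the Flcn/Tfeb cross, also without a call, the intercalated cell sum was 205 to 217 CPM in controls and 234 to 256 CPM in DKO libraries. Its thick ascending limb sum went the other way, at 894 to 1051 CPM in controls and 805 to 905 CPM in DKO libraries, with overlap. In set C the stroma list summed to 2369 to 3729 CPM in controls and 3330 to 4176 CPM in DKO libraries, with all 8 detected. These sums overlapped, 4 of its 8 genes were above 0, and its 1 called gene was lower. The principal cell sums overlapped as well (432 to 641 CPM and 436 to 566 CPM), with all 7 detected and 2 of the 7 called lower. Their part in the mitochondrial values was not tested.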

How the data were processed

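The deposited values are raw counts per gene, whole numbers that the authors made without normalization. Per the study's methods and the labels, 100-base single-end QuantSeq reads were trimmed, aligned on mm10 with STAR and counted with HTSeq-count. The trimming tool is named as bbduk in the methods and as Trim Galore in the submitters' processing notes. Set B has no tally of uncounted reads. Rows of such tallies were left out of totals and tests, and 1 column that belongs to no sample was not used.

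Fits used edgeR 4.0.16 in R 4.3.3 (filterByExpr, TMM, quasi-likelihood F test, Benjamini-Hochberg, adjusted p below 0.05), with DESeq2 1.42.0 as an alternative. A set term was used for both sets together. Other alternatives were RLE factors, library totals, factors from nuclear genes, other filters, a replicate block, no set term and each library left out. Tested on simulated data, the fits recovered 148 (Flcn cross), 30 (Flcn/Tfeb cross), 122 (set B) and 132 (set C) of 200 genes given a 2-fold change, and in the contrasts of effects 32 (Flcn/Tfeb less Flcn), 93 (Flcn/Tfe3 less Flcn), 23 (Flcn/Tfe3 less Flcn/Tfeb) and 54 (set C less set B). Replicates are called biological in the labels. The members, lists and tests were chosen with earlier results of these data known. All 13 members are named. Figures were drawn in matplotlib 3.10.9.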

Additional observations from a re-analysis of the deposited data

Results flagged for a closer look

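The difference between the effects in sets C and B passed for mt-Co1 (-1.26 on the log2 scale, edgeR interaction test).

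Single libraries stood far from their group in 15 of 108 groups of values examined by Dixon's 95% limit, where chance gives about 1 in 20. The groups share libraries and the members move together, so the 15 are not independent. Groups of 3 libraries, the controls of the Flcn/Tfeb cross and of set B, were not examined. Flcn/Tfeb control replicate 3 could therefore not be flagged. Within its own group, the mitochondrial share was low in Flcn/Tfeb DKO replicate 1 (10.4%) and high in Flcn/Tfe3 DKO replicate 4 of set B (3.56%). That set B library was also apart for mt-Nd1 (6068 CPM) and mt-Nd2 (8250 CPM), and DKO replicate 2 for mt-Nd3 (5.44 CPM). In set C control replicate 5 was high for mt-Nd2 (25368 CPM), control replicate 4 for mt-Nd3 (30.4 CPM) and DKO replicate 10 for mt-Nd4 (16584 CPM), and control replicate 6 was low for mt-Co3 (5.83 CPM). As a percentage of mitochondrial counts, Flcn KO replicate 1 was low for mt-Nd4 (33.3%) and high for mt-Cytb (16.8%) and mt-Co1 (2.46%). In the same unit mt-Co1 was high in Flcn control replicate 4 (2.20%) and in control replicate 4 of set C (3.14%), and mt-Nd2 was low in DKO replicate 10 of set C (20.1%).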

How the results depend on the processing

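The members called in set C numbered 3, and 1 on library totals, 7 with no filter, 0 with the replicate block and 0 to 10 with a library left out. For set C less set B the number was 1, and 0 on library totals or with the filter at a mean of 10 counts, and 0 to 8 with a library left out. The cause was not tested. In the other comparisons the number of members called was 0 under every alternative and with every library left out. The differences in share and in the mt-Nd4 percentage moved by less than the spread between libraries under each alternative run. However, the sign of the share difference turned in the Flcn cross (-0.16 to 1.40 points) and set B (-0.42 to 0.10) with a library left out. So did that of the mt-Nd4 percentage in the Flcn cross (-1.95 to 1.31) and over the Flcn/Tfe3 cross (-1.33 to 1.24), while in set B the latter difference lay between -6.48 and -2.05 points.

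Over all genes, DESeq2 called 113 in the Flcn cross, 96 in the Flcn/Tfe3 cross, 25 in set B, 865 in set C and 716 for set C less set B (edgeR 62, 48, 8, 569 and 162), and in the Flcn/Tfeb less Flcn and Flcn/Tfe3 less Flcn/Tfeb contrasts 8 and 7 (edgeR 2 and 3). With a library left out set C gave 26 to 2404 genes and set C less set B 0 to 1690. With no filter the numbers were 95, 61, 14, 937 and 398. On library totals set C gave 358 higher and 204 lower genes in place of 109 and 460, and set C less set B gave 0. The split of set C into higher and lower genes therefore depended on the scaling.

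Replicate numbers did not pair the libraries: same-numbered libraries correlated at -0.34 to 0.33 in their deviations from group means. With the replicate block 48 genes were called for Flcn KO, 0 for Flcn/Tfeb DKO, and 12, 0 and 176 for Flcn/Tfe3 DKO over both sets, in set B and in set C. Shares over the 13 protein-coding genes alone or without ribosomal RNAs equal the main value, since the tables hold no other mt- gene. The added reads on no gene could not be used in set B.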
